A study of Mus musculus with 17 samples.

Results

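The transcripts described are 39 neuronal genes that encode synaptic and cytoskeletal proteins. They were taken as a fixed list from the 26556 genes with counts in cells sorted as astrocytes. All 39 were found. They comprise 4 genes of SNARE proteins, 3 of synaptotagmins, 5 of other synaptic vesicle proteins, 5 that load or make neurotransmitters, 5 of neuronal RNA-binding proteins, 9 of neurofilaments, microtubules, and the growth cone, 5 of postsynaptic scaffolds and kinases, and 3 other genes in general neuronal use. The list was not chosen by a threshold on the counts. The 17 libraries were made at P7 from *Gfap::GFP* mice of the FVB strain, in which the *Gfap* promoter drives green fluorescent protein, and all groups share this age, strain, and reporter. GFP-positive cells were sorted from the primary somatosensory cortex (4 libraries), the dorsolateral geniculate nucleus (dLG, 5), the ventral posteromedial nucleus (VPM, 4), and the ventral part of the medial geniculate nucleus (MGv, 4), and each library pools 4 brains. The reporter follows the activity of 1 promoter, so the sort defines the cells only as far as that promoter does, and no library of neurons or of unsorted tissue was analysed here.

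At a synapse, SNARE proteins of the vesicle and of the plasma membrane pair to fuse the vesicle, synaptotagmins sense calcium, and vesicular transporters fill the vesicle with glutamate or GABA. Neurofilaments and microtubules with their associated proteins give axons and dendrites their calibre and tracks. These genes serve as markers of neurons, although astrocytes also use vesicle fusion and microtubules. Thalamic relay neurons of the dLG, VPM, and MGv are glutamatergic, and the rodent dLG also holds GABAergic interneurons.

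Levels are library-size scaled counts (CPM, with edgeR’s TMM factors), unless a value is given per kilobase of exon. Library totals ranged from 18213687 to 50366363 counts, so 3 counts, taken as the floor of detection, correspond to between 0.0631 and 0.165 CPM, which covers counting error only. All 9 astrocyte marker genes were above 3 counts in every library, with a median of 149 CPM per kb, and 8 oligodendrocyte lineage genes had a median of 113 CPM per kb. The median was 1.02 CPM per kb for 6 microglial and 0.521 CPM per kb for 5 endothelial and mural genes. *Gfap* itself was at 8.73 to 18.9 CPM in the VPM libraries and at 36.5 to 5731 CPM in the other 13. By their leading digits, the library numbers given as labels form 3 series, of which the largest holds 10 libraries, among them all 4 of the MGv, another holds 6, and dLG replicate c stands alone in the remaining one.

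The members lay between astrocyte markers and microglial markers, with a median of 12.4 CPM per kb. Together they took 0.405 to 0.475% of the counts of cortical libraries, 0.452 to 0.612% of those of dLG libraries, 0.326 to 0.522% for the VPM, and 0.345 to 0.643% for the MGv. These ranges overlap for every pair of groups. The summed level of all 39 was 4287 to 4867 CPM in the cortex and 4556 to 6231 CPM in the dLG, which overlapped. *Syt11* has the highest CPM of the members and is higher in the cortex. Without *Syt11*, the summed level was 3090 to 3640 CPM in the cortex and 3655 to 5117 CPM in the dLG, which did not overlap. This separation thus depends on leaving out *Syt11*. The sum without *Syt11* was 2569 to 4467 CPM in the VPM and 2511 to 5287 CPM in the MGv, which overlapped with both. Per kilobase, the highest level was that of *Stmn3*, which encodes a tubulin-binding stathmin, with a median of 297 CPM per kb. *Gap43*, a growth cone protein gene, followed with 216 CPM per kb and *Syt11*, a synaptotagmin gene, with 182 CPM per kb. *Uchl1*, *Tubb3*, *Vamp2*, and *Stmn2* had medians between 50.9 and 119 CPM per kb. At the other end were *Camk2a* with 1.02 CPM per kb, *Gad2* with 0.352 CPM per kb, and *Slc32a1* with 0.157 CPM per kb. Of the 39, 37 had more than 3 counts in every library. The exceptions were *Gad2* and *Slc32a1*, the genes of a GABA-synthesizing enzyme and of the vesicular GABA transporter, each with at least 1 library at 0 counts. In sorted cells, bulk RNA cannot tell more neurons or neuronal fragments from more of these transcripts per astrocyte or oligodendrocyte lineage cell. Nor can it tell fewer cells of a type from less RNA per cell.

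The promoter windows of 3 members are given because the results below turn on them: *Slc17a6* and *Slc17a7*, the genes of the main vesicular glutamate transporters of thalamic and cortical neurons, and *Syn1*, which encodes the vesicle-tethering protein synapsin. Each window runs 5′ to 3′ on the strand of the gene from 250 bases before to 50 bases after the start site in RefSeq (GRCm38.p6), and capitals mark matches to the letters named below on either strand.
*Slc17a6*, chr7:51621580-51621879, plus strand: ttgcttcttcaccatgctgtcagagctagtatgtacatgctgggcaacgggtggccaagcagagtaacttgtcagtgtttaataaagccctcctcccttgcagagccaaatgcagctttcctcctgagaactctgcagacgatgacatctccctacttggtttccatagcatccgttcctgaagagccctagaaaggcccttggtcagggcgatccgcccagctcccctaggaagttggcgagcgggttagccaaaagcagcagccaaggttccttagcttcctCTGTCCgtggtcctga
*Slc17a7*, chr7:45163671-45163970, plus strand: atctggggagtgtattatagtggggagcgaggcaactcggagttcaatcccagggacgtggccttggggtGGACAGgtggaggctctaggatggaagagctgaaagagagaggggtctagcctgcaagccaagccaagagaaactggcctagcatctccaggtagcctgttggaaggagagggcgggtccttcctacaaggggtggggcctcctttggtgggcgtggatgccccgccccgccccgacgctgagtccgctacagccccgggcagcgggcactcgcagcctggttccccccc
*Syn1*, chrX:20920869-20921168, minus strand: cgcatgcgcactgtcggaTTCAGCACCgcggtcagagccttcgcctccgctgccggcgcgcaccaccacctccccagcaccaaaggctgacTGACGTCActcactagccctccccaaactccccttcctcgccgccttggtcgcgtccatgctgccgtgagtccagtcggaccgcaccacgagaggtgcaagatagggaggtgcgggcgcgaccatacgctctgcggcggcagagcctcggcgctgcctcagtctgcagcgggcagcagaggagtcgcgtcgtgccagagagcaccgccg
The window of *Slc17a6* had a GC content of 53.7% and 8 CpG dinucleotides, that of *Slc17a7* 63.7% and 13, and that of *Syn1* 68.3% and 33. The RE1 element, which the repressor REST binds, was searched by its half-sites TTCAGCACC and GGACAG, and the cAMP response element by TGACGTCA, and no match overlapped another. Windows were present for 26 of the 39 members, 39 windows in all. TTCAGCACC occurred in 1 of the 39, that of *Syn1*, and in 0.371% of all 32851 windows. TGACGTCA was also found in the *Syn1* window alone, against 1.79% of all windows. GGACAG occurred in 10 member windows, among them those of *Slc17a6* and *Slc17a7*, and in 22.2% of all windows. A match is a description of these letters and is no evidence of binding.

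Thalamic libraries were compared with cortical libraries to ask which of these transcripts differ between the regions. At an adjusted p under 0.1 (edgeR’s quasi-likelihood test with Benjamini-Hochberg adjustment over 17856 genes), 7 of the 39 members had higher levels in the thalamus, 3 had higher levels in the cortex, and 29 did not pass. Over all genes tested, the share higher in the thalamus was 5.45%, and that higher in the cortex was 5.93%. The members higher in the thalamus were *Slc17a6*, all 3 neurofilament genes, *Thy1*, *Vamp1*, and *Shank1*, and those higher in the cortex were *Rbfox3*, *Syt4*, and *Syt11*. The median log2 fold change (log2FC, thalamus over cortex) was 0.19 over the members and 0.02 over all genes tested, and 26 of the 39 were above 0. The thalamic and cortical libraries did not overlap for *Slc17a6* and *Thy1*, both higher in the thalamus, as for 1.77% of all genes, nor for *Syt11*, higher in the cortex, as for 3.01% of all genes.

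**Figure D1:**
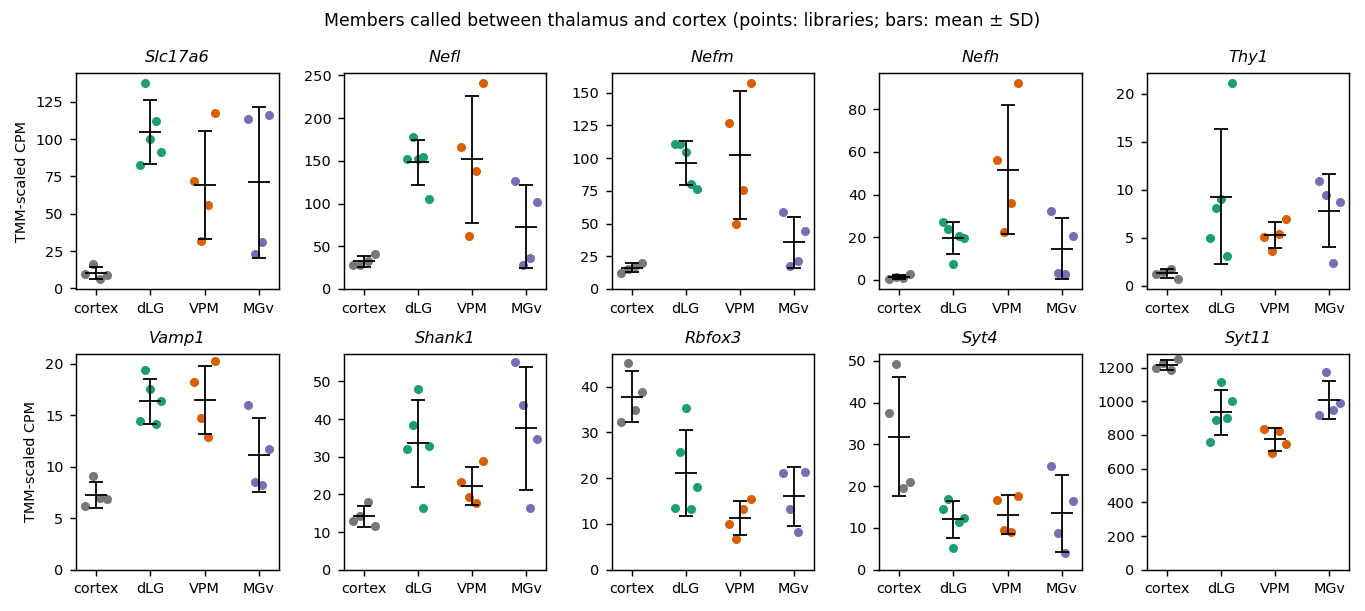
TMM-scaled CPM (y axis, a separate linear scale per panel) of the 10 members called between thalamus and cortex, by group (x axis). Points are libraries and bars the mean ± SD. The cortical points of *Slc17a6* (6.28 to 16.0 CPM) lie under all thalamic points, and those of *Syt11* (1185 to 1252 CPM) above them.

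*Slc17a6* (GRCm38 chromosome 7, 51622006 to 51671119) was at 9.61, 16.0, 6.28 and 9.08 CPM in cortical libraries a to d, whereas the 13 thalamic libraries ranged from 23.2 to 138 CPM with a median of 91.3 CPM. The lowest thalamic library, MGv b, lay above the highest cortical one, and the log2FC was 3.01 (SE 0.46, adjusted p = 0.000193). Within the largest library series it was 3.47 (adjusted p = 0.0187) and within the next 2.58 (adjusted p = 0.0608). *Slc17a7* (chromosome 7, 45163949 to 45176142) was at 22.0, 33.1, 41.5 and 51.4 CPM in the cortex and at 1.13 to 49.2 CPM with a median of 12.1 CPM in the thalamus. Its range in the VPM overlapped with the cortex while the MGv lay far below, and the log2FC of -1.50 did not pass (SE 0.63, adjusted p = 0.171). A fit in which each nucleus has its own mean called it with an adjusted p of 7.69e-05, as did the comparison without VPM d, with one of 0.0418. The GABA genes *Gad1*, *Gad2*, and *Slc32a1* gave log2FC of 0.51 (adjusted p = 0.111), -0.69, and -0.16, none of which passed. *Gad1* passed without dLG c or e, MGv b or c, or VPM d, with adjusted p down to 0.0667, and also with DESeq2 (0.0448), its size factors in edgeR, at least 10 counts in every library, the replicate block (0.0794), the library series as a covariate, and the fit of 4 groups (0.0961). *Gad2* was called higher in the cortex in the fit of 4 groups alone, with a log2FC of -1.80 (adjusted p = 0.0393).

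The neurofilament genes, whose products fill mature axons, were all higher in the thalamus. *Nefh*, the gene of the heavy subunit on chromosome 11 (4938754 to 4948064), was at 0.484, 1.35, 0.840 and 2.88 CPM in cortical libraries a to d and ranged from 2.66 to 92.4 CPM with a median of 22.4 CPM in the thalamus. MGv c lay under cortex d and all other thalamic libraries above the cortex, and the log2FC was 4.39 (SE 0.87, adjusted p = 0.00255). *Nefm* and *Nefl*, of the medium and light subunits, gave values of 2.29 (SE 0.47, adjusted p = 0.00346) and 1.96 (SE 0.43, adjusted p = 0.00629). In the cortex, *Nefl* was at 27.9, 27.8, 32.8 and 40.6 CPM, and in the thalamus it ranged from 27.9 to 242 CPM with a median of 137 CPM, with MGv b and c within the cortical range. *Nefl* and *Nefm* overlap on opposite strands on chromosome 14, over 32.8% of the exonic length of *Nefl* and 19.2% of that of *Nefm*. The library kit does not mark the strand, so strand cannot separate the reads of this overlap. How the counting treated such reads is not stated. Within the largest library series, the log2FC of the 3 genes lay between 1.78 (*Nefl*) and 4.01 (*Nefh*) without passing, with adjusted p of 0.253 for *Nefl*, 0.236 for *Nefm*, and 0.155 for *Nefh*, while within the next series all 3 passed. Each of these series holds 2 cortical libraries. None of the other 6 cytoskeletal and growth cone genes passed. *Map2*, which encodes the microtubule protein of dendrites, had a log2FC of 0.10 (95% interval -0.08 to 0.29), and the class III tubulin gene *Tubb3* one of 0.02 (95% interval -0.63 to 0.66).

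*Thy1*, on chromosome 9 (44043384 to 44048579), encodes a glycoprotein of the neuronal surface and was at 1.26, 1.45, 1.78 and 0.683 CPM in the cortex and 2.32 to 21.1 CPM with a median of 6.95 CPM in the thalamus. No thalamic library fell into the cortical range, although dLG e stood at more than any other, and the log2FC was 2.53 (SE 0.51, adjusted p = 0.00289). *Vamp1*, a vesicle SNARE gene, was at 6.16, 9.07, 6.92 and 6.83 CPM in the cortex and 8.23 to 20.2 CPM with a median of 14.7 CPM in the thalamus. Cortex b exceeded MGv b and c, and the log2FC was 1.02 (SE 0.24, adjusted p = 0.00877). *Shank1*, a postsynaptic scaffold gene, had 12.8, 14.3, 18.0 and 11.5 CPM in the cortex, 16.4 to 55.1 CPM with a median of 32.1 CPM in the thalamus, and a log2FC of 1.12 (SE 0.30, adjusted p = 0.0249). Without cortex d its adjusted p was 0.107. Within the library series, *Thy1* passed in the largest (log2FC 2.53, adjusted p = 0.0328) and not in the next (2.59, adjusted p = 0.347), and neither *Vamp1* nor *Shank1* passed in either.

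Of the members higher in the cortex, *Syt11* (chromosome 3, 88744700 to 88775164) had the smallest change and the highest level. It was at 1197, 1226, 1185 and 1252 CPM in cortical libraries a to d and ranged from 690.5 to 1172 CPM with a median of 901 CPM in the thalamus. The log2FC was -0.44 (SE 0.12, adjusted p = 0.0213). Every cortical library lay above every thalamic one, but without cortex d the adjusted p was 0.11. *Syt11* also did not pass within the largest library series or within the next, with adjusted p up to 0.458. *Syt4*, which like *Syt11* encodes a synaptotagmin without the usual calcium binding, was at 37.5, 49.4, 19.6 and 21.0 CPM in the cortex and 3.89 to 24.9 CPM with a median of 12.5 CPM in the thalamus. Cortex c and d lay within the thalamic range, the log2FC was -1.33 (SE 0.34, adjusted p = 0.017), and without cortex b the adjusted p was 0.142. In the library series of cortex c and d the log2FC of *Syt4* was -0.52 (adjusted p = 0.659), and in that of cortex a and b it was -1.80 (adjusted p = 0.019). The annotated gene *Gm26658* shares 14.5% of the exonic length of *Syt4*. *Rbfox3*, the gene of the splicing factor known as NeuN, was called in both series, with log2FC of -1.15 (adjusted p = 0.0679) and -1.70 (adjusted p = 0.0854).

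The other presynaptic members did not pass between the regions. *Snap25*, which encodes the SNARE protein of the presynaptic membrane and serves below as the reference for libraries, had a log2FC of -0.30 (95% interval -0.81 to 0.21). The log2FC of the 5 other vesicle proteins, *Syp*, *Syn1*, *Syn2*, *Sv2a*, and *Sv2b*, lay between 0.07 and 0.38. *Syt1*, the calcium sensor of fast release, had a log2FC of 0.72 with a 95% interval of -0.03 to 1.47. Of the further genes in these pathways, 23 presynaptic release genes gave 3 with higher levels in the thalamus and 1 with a higher level in the cortex. *Rph3a*, a Rab effector gene, had a log2FC of 0.80 (adjusted p = 0.026), and *Synpr*, a synaptophysin relative, one of -1.07 (adjusted p = 0.0144). Of 14 further genes of the neuronal cytoskeleton and trafficking, edgeR called 3 higher in the thalamus and 0 higher in the cortex, led by the intermediate filament gene *Ina* (log2FC 0.98, adjusted p = 0.00606), which overlaps *Nt5c2* over 14.1% of its exonic length. Among 12 vesicle fusion genes also used outside neurons, 2 were higher and 1 lower in the thalamus, and the lists’ median log2FC were 0.24, 0.31, and -0.05. Of the 9 astrocyte markers, 3 were higher in the cortex and 1 in the thalamus, and their summed level was 12383 to 13014 CPM in the cortex and 6002 to 15646 CPM in the thalamic libraries. Without Gfap the sums were 11846 to 12516 CPM in the cortex and 5965 to 9915 CPM in the thalamic libraries, which then all lay under the cortex. None of the 8 oligodendrocyte lineage and 6 microglial genes passed edgeR’s test, with 0 and 2 at an unadjusted p under 0.05. Of the 5 endothelial and mural genes, 1 was higher in the cortex, the pericyte gene *Pdgfrb* (log2FC -3.74, adjusted p = 1.22e-05). Their summed level was 36.3 to 65.4 CPM in the cortex, 2.50 to 62.1 CPM in the dLG, 3.57 to 13.9 CPM in the VPM, and 2.38 to 15.2 CPM in the MGv. The part of these other cell types in the differences was not tested.

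The nuclei were compared in pairs to ask where the members differ within the thalamus, in a fit of the 13 thalamic libraries over 17319 genes. These libraries are the thalamic group of the comparison above, and each nucleus enters a pair of comparisons, so the results are not independent of each other. Between the dLG and the VPM, 6 members were higher in the dLG (6.48% of all genes tested) and 1 in the VPM (3.16%). Between the VPM and the MGv, 2 were higher in the VPM (5.13% of the members, against 4.53% of all genes). In the same pair, 3 were higher in the MGv (7.69%, against 6.89%), so both shares were near those over all genes. Between the dLG and the MGv, 1 was higher in the dLG (0.37%) and 0 in the MGv (0.277%) by edgeR’s quasi-likelihood test. At an unadjusted p under 0.05 in that test, 6 members were higher in the dLG and 1 in the MGv. DESeq2 called 4 higher in the dLG and 1, *Celf4*, higher in the MGv. The median log2FC of the members was 0.34 for the dLG over the VPM, against 0.01 over all genes, -0.18 for the VPM over the MGv, against -0.04, and 0.14 for the dLG over the MGv, against -0.00383.

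**Figure D2:**
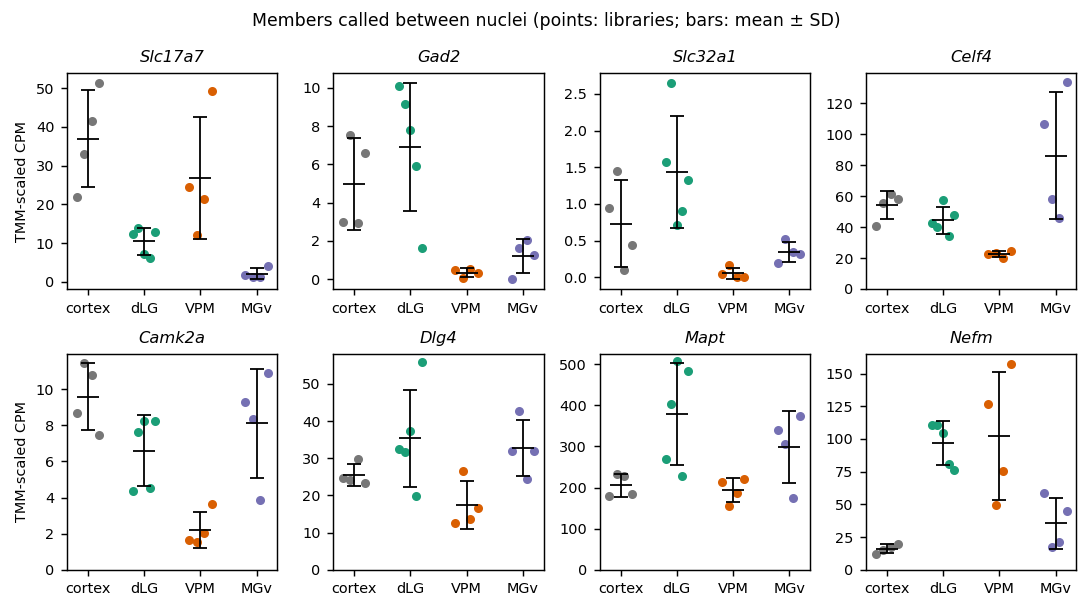
TMM-scaled CPM (y axis, a separate linear scale per panel) of the 8 members called between nuclei, by group (x axis), with points for libraries and bars for the mean ± SD. The MGv points of *Slc17a7* (1.13 to 4.18 CPM) lie under those of every other group, and the VPM points of *Celf4* (19.8 to 24.5 CPM) under those of all other groups.

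Among the 37 members with more than 3 counts in every library, *Slc17a7* had the largest difference between nuclei in the fits. It was at 12.3, 13.8, 7.29, 6.16 and 13.0 CPM in dLG libraries a to e, 24.5, 12.1, 21.4 and 49.2 CPM in VPM libraries a to d, and 1.897, 1.26, 1.13 and 4.18 CPM in MGv libraries a to d. The MGv lay under both other nuclei without overlap, while VPM b fell within the dLG range. Its log2FC was 3.68 (SE 0.50, adjusted p = 0.00115) for the VPM over the MGv, 2.31 (SE 0.47, adjusted p = 0.0395) for the dLG over the MGv, and -1.37 (SE 0.42, adjusted p = 0.0739) for the dLG over the VPM. With each library left out, the adjusted p of the VPM and MGv pair stayed at 0.00455 or lower. That of the dLG and MGv pair reached 0.157 and did not pass without dLG b, MGv a, MGv b, or MGv c. That of the dLG and VPM pair reached 0.269 and did not pass without dLG b, c, or e or VPM a, c, or d. *Slc17a6*, by contrast, was at 83.0, 138, 99.9, 112 and 91.3 CPM in the dLG, 72.0, 31.7, 55.9 and 117 CPM in the VPM, and 113, 23.2, 31.3 and 117 CPM in the MGv. Its libraries differed up to 5.03-fold within the MGv, and no pair of nuclei passed, with 95% intervals of -0.29 to 1.44 for the dLG over the VPM and -0.30 to 1.43 for the dLG over the MGv.

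The GABA genes *Gad2* and *Slc32a1* were higher in the dLG than in the VPM. *Gad2* had 211, 190, 164, 118 and 32 counts in dLG libraries a to e, 10, 1, 11 and 7 counts in VPM libraries a to d, and 0, 31, 42 and 27 counts in MGv libraries a to d. The dLG and the VPM did not overlap, MGv a at 0 counts was under the whole VPM and the other MGv libraries above it, and the log2FC of the dLG over the VPM was 4.26 (SE 0.91, adjusted p = 0.0224). *Slc32a1* had 33, 55, 15, 18 and 26 counts in the dLG and 1, 3, 0 and 0 in the VPM. Each VPM library was at or under 3 counts, so the fold is not given and the fitted value would depend on the prior count. The call itself had an adjusted p of 0.0177. With 4 to 10 counts in MGv libraries, *Slc32a1* passed the filter on low counts through the dLG, where it is high. Its call is therefore not taken as support for a difference, and the counts of *Slc32a1* are given as a description. An overlapping gene, *Gm14205*, shares 24.9% of its exonic length. *Gad1*, which encodes the other GABA-synthesizing enzyme, did not pass, with 31.2, 36.8, 19.8, 35.2 and 20.5 CPM in the dLG, 24.8, 21.9, 22.2 and 22.8 CPM in the VPM, and a log2FC whose 95% interval was -0.11 to 0.71. Against the MGv, the dLG gave log2FC of 2.49 (adjusted p = 0.403) for *Gad2* and 2.04 (adjusted p = 0.61) for *Slc32a1*, which did not pass with edgeR but did with DESeq2.

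*Celf4*, *Camk2a*, and *Dlg4* were called lower in the VPM than in both other nuclei, and *Mapt* lower than in the dLG. *Celf4*, the gene of an RNA-binding protein, was at 42.8, 40.3, 57.5, 34.2 and 47.8 CPM in dLG libraries a to e, 22.4, 23.1, 19.8 and 24.5 CPM in VPM libraries a to d, and 107, 58.2, 45.9 and 134 CPM in MGv libraries a to d. The VPM did not overlap with either nucleus, and the log2FC was -1.91 (SE 0.28, adjusted p = 0.00169) for the VPM over the MGv and 0.96 (SE 0.27, adjusted p = 0.0538) for the dLG over the VPM. *Camk2a*, the gene of a calcium-dependent kinase of the postsynaptic side, was at 4.35, 7.61, 8.25, 4.55 and 8.24 CPM in the dLG, 1.62, 1.54, 2.03 and 3.64 CPM in the VPM, and 9.29, 8.37, 3.84 and 10.9 CPM in the MGv. All VPM libraries were under all libraries of the dLG and the MGv, with log2FC of -1.84 (SE 0.41, adjusted p = 0.0183) for the VPM over the MGv and 1.55 (SE 0.39, adjusted p = 0.039) for the dLG over the VPM. *Dlg4*, which encodes the main scaffold of the postsynaptic density, was at 32.4, 31.6, 37.3, 19.7 and 55.8 CPM, 12.7, 26.6, 13.6 and 16.7 CPM, and 32.1, 42.8, 24.4 and 31.9 CPM in the same order. VPM b overlapped with both other nuclei, and the log2FC was -0.88 (SE 0.30, adjusted p = 0.097) for the VPM over the MGv and 1.00 (SE 0.29, adjusted p = 0.0651) for the dLG over the VPM. *Mapt*, the tau gene, was at 269.5, 404, 507, 229 and 483 CPM in the dLG and 212, 155, 187 and 221 CPM in the VPM. These libraries did not overlap, with a log2FC of 0.94 (SE 0.25, adjusted p = 0.05).

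With 1 library left out, several of these calls did not pass. Between the dLG and the VPM, *Celf4* did not pass without dLG e or VPM a, c, or d (adjusted p up to 0.167), and *Camk2a* without VPM a or c (up to 0.135). *Dlg4* was not called without dLG b or e or VPM a, c, or d (adjusted p up to 0.195), and *Mapt* without dLG b or e or any single VPM library (up to 0.148). Without VPM a or c, 2 members were higher in the dLG than in the VPM, and without dLG d there were 8, with *Elavl3* and *Rbfox3* added. Between the VPM and the MGv, *Dlg4* lost its call in 8 of 13 such fits, without dLG a or b, MGv a, b, or d, or VPM a, c, or d (adjusted p up to 0.252), whereas *Celf4* stayed at 0.0125 or lower and *Camk2a* at 0.0706 or lower. Without MGv a, 5 members were higher in the VPM than in the MGv, and without VPM b 4, with *Nefh* and *Nefl* added in both. Without MGv c, 6 were higher in the MGv, with *Elavl3*, *Mapt*, and *Shank1* added. Between the dLG and the MGv, *Celf4* was called higher in the MGv without MGv c, and *Nefm* higher in the dLG without MGv a or VPM b. All 4 MGv libraries are in 1 library series, so the MGv can be compared with the other nuclei only within it or with the series as a covariate. With that covariate, the dLG and VPM pair kept *Camk2a*, *Gad2*, and *Slc32a1*, the VPM and MGv pair kept *Slc17a7*, *Nefm*, *Celf4*, and *Camk2a*, and the dLG and MGv pair kept *Slc17a7*.

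*Nefm* was the neurofilament gene called between nuclei. It was at 127, 49.5, 75.7 and 158 CPM in the VPM and 58.9, 17.6, 21.3 and 44.6 CPM in the MGv. MGv a lay above VPM b, and the log2FC of the VPM over the MGv was 1.55 (SE 0.38, adjusted p = 0.0282). *Nefh* and *Nefl* differed by log2FC of 1.85 (adjusted p = 0.112) and of 1.09 (adjusted p = 0.147) in the same pair, and both passed with DESeq2. Of the 23 further presynaptic genes, 6 were higher in the dLG than in the VPM and 1 lower, and 6 were lower in the VPM than in the MGv and 1 higher. *Sv2c*, a vesicle glycoprotein gene, led both, with log2FC of 1.69 (adjusted p = 0.00319) for the dLG over the VPM and -1.96 (adjusted p = 0.000992) for the VPM over the MGv, and *Cplx1*, a complexin gene, was higher in the VPM in both, with log2FC of -0.97 and 1.23. Of the 14 further cytoskeletal genes, 4 were higher and 0 lower in the dLG than in the VPM, and 2 were lower and 0 higher in the VPM than in the MGv, with *Dpysl5* first in both (log2FC 1.41 and -1.49). Neither list gave a call by edgeR between the dLG and the MGv, where 0 of the 23 and 1 of the 14 had an unadjusted p under 0.05. Of the 12 fusion genes also used outside neurons, *Syt7* was higher and *Vamp3* lower in the dLG than in the VPM, and the reverse held for the VPM over the MGv. Microglial markers moved with the VPM, since 4 of 6 were higher in the dLG and 3 of 6 higher in the MGv, with summed levels of 6.73 to 11.3 CPM in the VPM, 12.2 to 102.9 CPM in the dLG, and 16.2 to 58.8 CPM in the MGv. Their part in the differences was not tested.

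Libraries of the same group were then compared with each other. The SD of log2 CPM between libraries of a group had a median over the members of 0.25 for the cortex, 0.31 for the dLG, 0.40 for the VPM, and 0.62 for the MGv. Over all genes tested, it was 0.26, 0.41, 0.24, and 0.33, so the members varied more than the typical gene in the VPM and the MGv and not in the cortex and the dLG. The highest library exceeded the lowest more than 2-fold for 8 members among cortical libraries, 14 among those of the dLG, 18 among those of the VPM, and 28 among those of the MGv. In the MGv, the median ratio of the highest to the lowest library was 2.62.

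**Figure D3:**
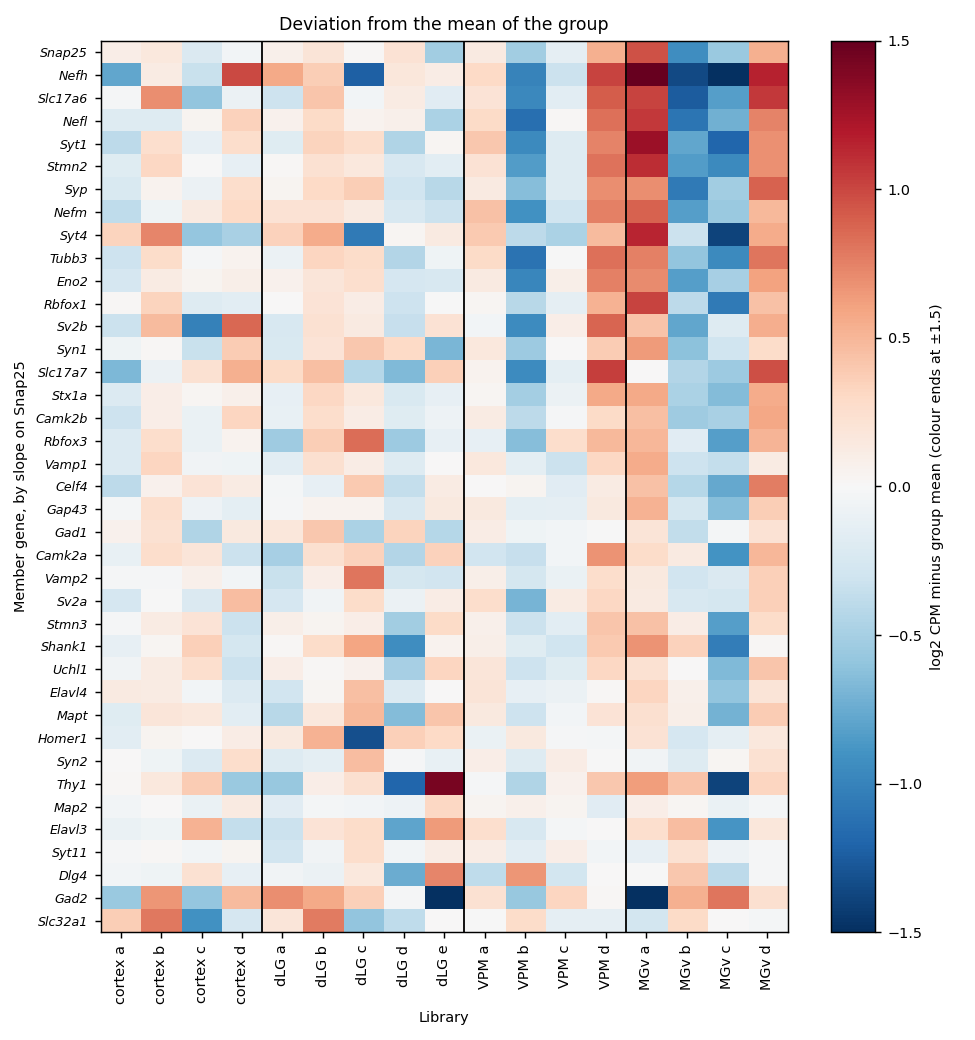
Heat map of log2 CPM minus the mean of the group, for 39 members (rows, by their slope on *Snap25*) in 17 libraries (columns, groups divided by lines), with colours ending at ±1.5. VPM b is lowest of the VPM for 31 members and VPM d highest for 28, and MGv a and d are above MGv b and c for most of the upper rows.

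In the VPM, replicate d was the highest library for 28 of the 39 members and replicate b the lowest for 31. Over all genes tested, VPM d was the highest for 22.2% and VPM b the lowest for 31.8%. In the MGv, replicate a was the highest for 19 members and d for 15, against 23.7 and 18.1% of all genes, while c was the lowest for 23 and b for 13, against 22.7 and 31.6%. The summed level of the members was 4582, 3260, 4003, and 5215 CPM in VPM a to d, beside 6166, 8525, 8408, and 7594 CPM for the 9 astrocyte markers. In MGv a to d, the members summed to 6205, 4262, 3460, and 5940 CPM and the astrocyte markers to 6002, 8090, 15646, and 8231 CPM. The library with the highest member sum in the MGv thus had the lowest astrocyte sum, and the reverse held for MGv c. Without Gfap, which was at 36.5, 610, 5731, and 1309 CPM in MGv a to d, the other 8 astrocyte markers summed to 5965, 7480, 9915, and 6922 CPM, and the order of MGv a and c was the same. In the dLG, replicate b was the highest library for 16 members, against 11.3% of all genes, and d the lowest for 20, against 20.4%. In the cortex b was the highest for 16, against 16.8%, and a the lowest for 16, against 23.5%. *Homer1* was lower in dLG c, at 17.8 CPM, than in the other dLG libraries, at 50.2, 64.9, 58.0, and 55.6 CPM.

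*Snap25* (chromosome 2, 136713453 to 136782428) illustrates the spread, with 195, 204, 156 and 178 CPM in cortical libraries a to d and 141, 152, 135, 155 and 92.8 CPM in dLG libraries a to e. It was at 189.7, 120.1, 157 and 249.7 CPM in VPM libraries a to d and 237, 63.8, 83.0 and 177 CPM in MGv libraries a to d. The MGv held both the lowest level of all 17 libraries and one near the highest, and both the VPM and the MGv overlapped with all other groups, whereas the lowest cortical library lay just above the highest of the dLG. To ask which transcripts vary together between libraries of a group, each gene was fitted on the log2 CPM of *Snap25* with the 4 groups as terms, so that a slope of 1 means a change in proportion to *Snap25*. At an adjusted p under 0.1 in edgeR’s quasi-likelihood test over 17855 genes, 15 of the 38 other members rose with *Snap25*, where 2.12% of all genes did. None fell, with 0 members at an unadjusted p under 0.05 and 0 by DESeq2, where 0.543% of all genes fell. The median slope was 0.43 over the members and -0.01 over all genes, and 32 of 38 were above 0.

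**Figure D4:**
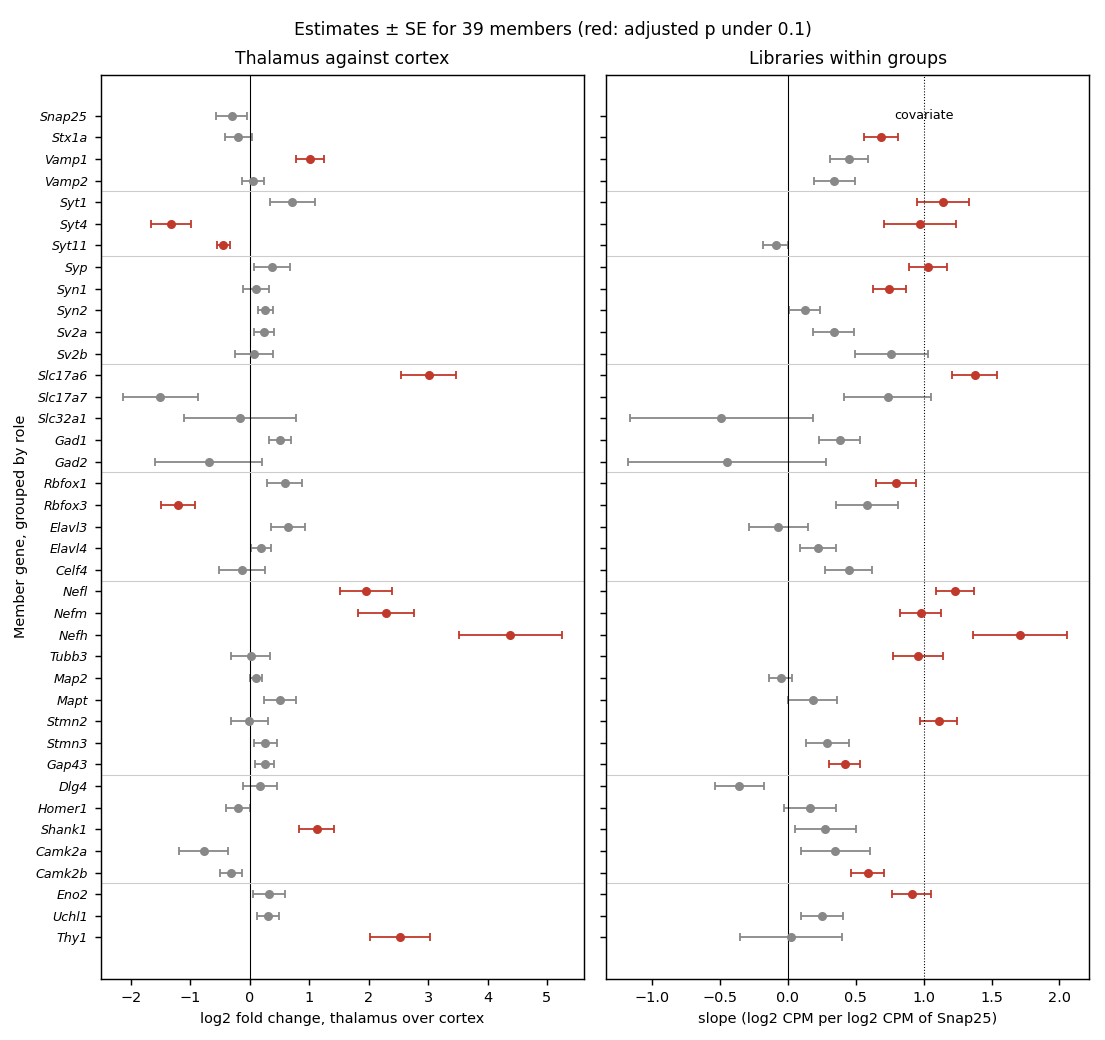
Left, log2 fold change of the thalamus over the cortex ± SE for 39 members grouped by role. Right, slope of log2 CPM on that of *Snap25* within groups ± SE, with a dotted line at 1. Red marks an adjusted p under 0.1, which 10 members have on the left and 15 on the right beside *Snap25*, the covariate.

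The rising members came from all 8 roles. Among the genes of vesicle release, *Syt1* had a slope of 1.14 (SE 0.19, adjusted p = 0.00366), *Syp*, which encodes an abundant vesicle membrane protein, one of 1.03 (SE 0.14, adjusted p = 0.000498), *Syn1* one of 0.75 (SE 0.12, adjusted p = 0.00316), and the SNARE gene *Stx1a* one of 0.69 (SE 0.12, adjusted p = 0.00657). *Syt4* had a slope of 0.98 (adjusted p = 0.0769). The slope of *Slc17a6* was 1.38 (SE 0.16, adjusted p = 0.000133) with a 95% interval of 1.05 to 1.70, and no other transmitter gene passed. With *Syt1* as the reference its slope was 0.93. Of the cytoskeletal genes 6 of 9 rose. The slopes were 1.23 (SE 0.14, adjusted p = 8.25e-05) for *Nefl*, 1.11 (SE 0.14, adjusted p = 0.000173) for the stathmin gene *Stmn2*, 0.98 (SE 0.15, adjusted p = 0.00201) for *Nefm*, 0.96 (SE 0.18, adjusted p = 0.0105) for *Tubb3*, and 1.71 (SE 0.35, adjusted p = 0.0149) for *Nefh*. *Gap43* rose less steeply, with a slope of 0.42 (SE 0.11, adjusted p = 0.0763). The remaining 3 were *Eno2*, the gene of a neuronal enolase, with 0.91 (SE 0.14, adjusted p = 0.00205), the splicing factor gene *Rbfox1* with 0.80 (SE 0.15, adjusted p = 0.00843), and the kinase gene *Camk2b* with 0.59 (SE 0.12, adjusted p = 0.0158). Other annotated genes overlap 16.8% of the exonic length of *Syp*.

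Other members did not pass the test of a slope, which does not show that they stayed level. *Map2* had a slope of -0.05 (95% interval -0.22 to 0.12), and in the MGv it was at 339, 323, 295 and 309 CPM where *Snap25* differed 3.71-fold. *Syt11* had a slope of -0.09 (95% interval -0.27 to 0.10) and *Syn2*, which encodes another synapsin, one of 0.13 (95% interval -0.10 to 0.35). The intervals of *Map2*, *Syt11*, and *Syn2* lie wholly under 1, the slope of a change in proportion to *Snap25*. This does not set them apart, since the intervals of many other members do so too. Among these are *Stx1a*, *Syn1*, *Camk2b*, and *Gap43*, which passed as rising, with upper ends of 0.929, 0.99, 0.824, and 0.64. For the RNA-binding protein gene *Elavl3* the slope was -0.07 with a 95% interval of -0.49 to 0.35, for *Elavl4* of the same family 0.22 with one of -0.04 to 0.48, for the postsynaptic scaffold gene *Homer1* 0.16 with one of -0.21 to 0.54, for *Mapt* 0.18 with one of -0.17 to 0.54, and for *Dlg4* -0.35 with one of -0.71 to 0.00. *Thy1*, although higher in the thalamus, had a slope of 0.02 with a wide interval of -0.71 to 0.76. The GABA genes *Gad2* and *Slc32a1* had slopes of -0.45 and -0.49, with SE of 0.73 and 0.67. Per kilobase, the median levels were 182 CPM for *Syt11*, 23.0 CPM for *Snap25*, 19.8 CPM for *Syn2*, and 19.2 CPM for *Map2*.

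**Figure D5:**
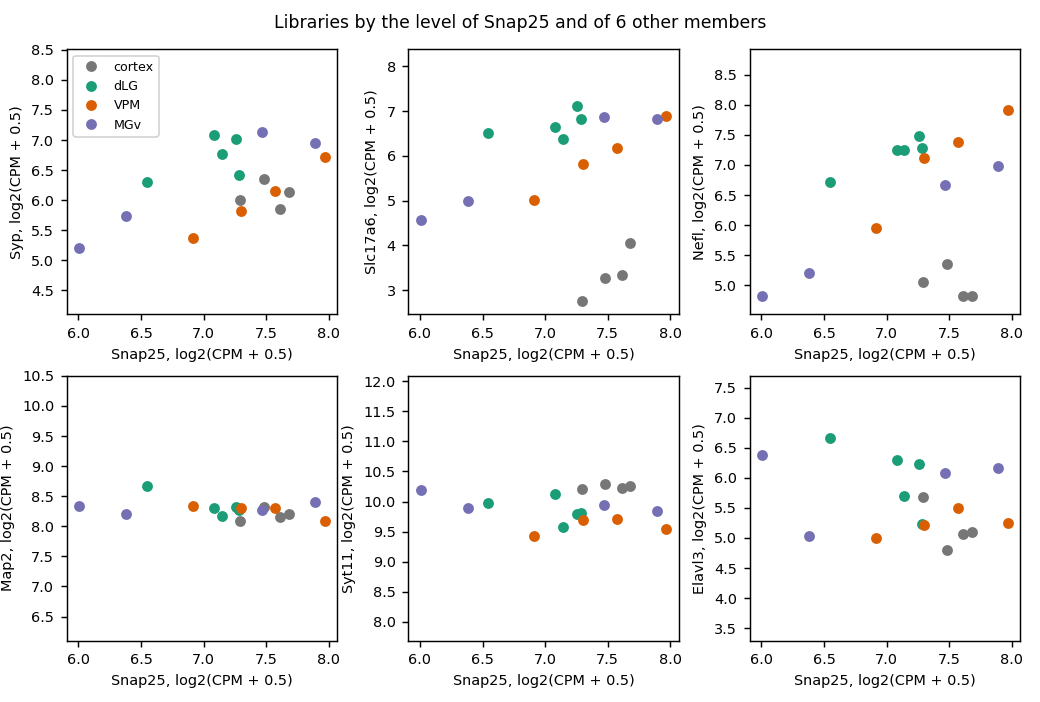
log2(CPM + 0.5) of 6 members (y axes) against that of *Snap25* (x axes), each point a library, coloured by group, with y axes of equal or wider span than the values. *Syp*, *Slc17a6*, and *Nefl* rise with *Snap25* within the VPM and the MGv. In the fit over all groups, the slopes of *Map2* (-0.05), *Syt11* (-0.09), and *Elavl3* (-0.07) did not pass the test.

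The slopes rest in part on the MGv, which holds the libraries farthest from the median of *Snap25* within groups, MGv a and MGv b. Without both, 6 members passed, namely *Eno2*, *Nefl*, *Slc17a6*, *Stmn2*, *Syp*, and *Tubb3*. Without MGv a or without MGv b alone, 11 passed, and with any other library left out between 13 and 17, the latter without dLG c, where *Vamp1* and *Vamp2* were added. *Nefh* did not pass without MGv a or b (adjusted p up to 0.161), *Camk2b* without MGv b (0.192), and *Rbfox1* without MGv a (0.126). *Gap43* and *Syt4* lost the call in 10 of 17 such fits each (adjusted p up to 0.268 and 0.248), without cortex b or c, dLG b, MGv a, b, or d, or any single VPM library. With the thalamic libraries only, 13 members passed. With *Syt1* in place of *Snap25* as the reference, 21 passed, 13 of which were among the 15. The shares of all genes that passed in these alternative fits are not given here, so the counts cannot be set against them.

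Of the further genes of the pathway, 8 of 23 presynaptic release genes rose with *Snap25* and 0 fell by edgeR, led by the endocytosis gene *Snap91* with a slope of 0.89 (adjusted p = 0.000339). Of 14 further cytoskeletal and trafficking genes 6 rose, led by the microtubule protein gene *Map1b* with a slope of 1.20 (adjusted p = 4.48e-05) and *Nsg1* with 0.59 (adjusted p = 0.000258). The median slope was 0.33 in the first list and 0.58 in the second. In the 12 vesicle fusion genes also used outside neurons, none passed edgeR’s test in either direction, with a median slope of 0.21, although 2 rose and 2 fell at an unadjusted p under 0.05. Of the 9 astrocyte markers 0 passed, with a median slope of -0.25, and 3 had a falling slope at an unadjusted p under 0.05. Of the 8 oligodendrocyte lineage, 6 microglial, and 5 endothelial and mural genes 0 passed, with median slopes of 0.04, 0.33, and -0.19. Whether the libraries with high *Snap25* held more neuronal RNA was not tested.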

How the data were processed

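RNA was sequenced as short single-end reads from cells sorted as astrocytes. Per the labels and the study’s methods, the authors removed adapter sequence, aligned the reads with STAR (2.7.0d) to GRCm38 (mm10), counted them on genes of Ensembl release 95 with featureCounts (Subread 1.6.4), and deposited raw counts per gene and library, with no replicates pooled. SAMtools 1.9 and FastQC 0.11.7 are also listed in the submitters’ processing notes. The library kit does not mark the strand, and the strand setting of the counting is not given in the sources used here. Genes were matched to symbols, positions, and exonic lengths with GENCODE release M21, for 26548 of 26556 identifiers. Exonic overlaps above 10% beside those in the text were 18.1% for *Uchl1* with an antisense gene. A level per kilobase divides CPM by the exonic length.

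The members and the further lists were chosen with earlier results of these data known. Vamp7 of the fusion list is not analysed here. Groups were taken from the tissue labels and replicates from their letters. The libraries of a group come from separate pools of brains as far as the labels show, and p-values measure only the spread between them. Replicates differed by far more than sampling noise (chi-square over degrees of freedom 17.8 to 130.4), so all were kept as separate samples.

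Statistics used edgeR 4.0.16 (TMM, filterByExpr, robust quasi-likelihood test, R 4.3.3) with Benjamini-Hochberg adjustment over all genes tested, at an adjusted p under 0.1. All 39 members passed the filter on low counts in both fits, *Slc32a1* in that of the nuclei through its dLG libraries. Thalamus and cortex were fitted as 2 groups, the nuclei as 3 groups without the cortex, and the slopes with 4 groups and the log2 CPM (pseudocount 0.5) of *Snap25*. SEs are the size of the estimate divided by the square root of F, and 95% intervals are 1.96 SEs to either side. Every member was named, and of the further lists a few genes of lowest p. Alternatives were DESeq2 1.42.0, its size factors in edgeR, no filter, at least 10 counts in every library, the library letter used as a replicate block, the library series as a covariate or each series alone, no robust estimation, a fit of 4 groups, an adjusted p under 0.05, *Syt1* as reference, and each library left out. The fits were tested on simulated counts with known changes. Tables were drawn with Python 3.11.15, pandas 2.3.3, numpy 2.4.6, scipy 1.17.1, and matplotlib 3.10.9.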

Additional observations from a re-analysis of the deposited data

Results flagged for a closer look

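In the dLG, the highest library stood far from the others for 2 genes. Chance gives such a library in about 1 of 20 of the 156 sets of a gene and a group tested. These 2, the only ones flagged, are thus no more than chance gives. *Syn2*, a synapsin gene, was at 192 CPM in dLG c against 122 to 137 CPM in the other dLG libraries, a gap of 0.785 of the range. *Map2* was at 405 CPM in dLG e against 289 to 319 CPM in the others, a gap of 0.736 of the range. dLG c is the only library of its library series and detected 17749 genes, the fewest of the 17.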

How the results depend on the processing

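Of 38 single results past the threshold, 14 passed under every setting in which the gene was tested and 0 changed direction while past it. Of 156 others, 129 passed under none. The 14 include *Gad2* and *Slc32a1* for the dLG and VPM pair. Neither was tested in the setting of at least 10 counts in every library. Within the largest library series 2 members were called for the thalamus and 1 for the cortex, and within the next 4 for the thalamus and 2 for the cortex. The fit of 4 groups called 6 members higher in the cortex, 2 higher in the dLG and 1 in the MGv for that pair, and 5 higher in the VPM than in the MGv. DESeq2 called 4 higher in the dLG and 1 higher in the MGv for that pair, and 5 higher in the VPM and 6 higher in the MGv for the VPM and MGv pair. For the dLG and VPM pair, the library series as a covariate and an adjusted p under 0.05 each left 3 members higher in the dLG and 0 in the VPM. With at least 10 counts in every library, 2 members were higher in the dLG than in the MGv. Without MGv a and b, 6 members rose with *Snap25*. The cause of these shifts was not tested. For these settings and those below, the shares of all genes called are not given here, so a shift may not be particular to the members.

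With each library left out, the number higher in the thalamus ranged from 6 to 8 and in the cortex from 2 to 4. The ranges were 2 to 8 for the dLG over the VPM and 0 to 1 for the reverse, 0 to 2 for the dLG over the MGv and 0 to 1 for the reverse, 2 to 5 for the VPM over the MGv and 2 to 6 for the reverse, and 11 to 17 for the rising slopes.

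With the replicate letter as a replicate block, 3 members were higher in the dLG and 0 in the VPM, 2 higher in the dLG than in the MGv, 4 higher in the VPM than in the MGv, and 11 rose with *Snap25*. Over 24 pairs of libraries with the same letter, deviations from the group means correlated at -0.17 to 0.27, and 6 pairs were over 0.1. Pairs with different letters ranged from -0.45 (MGv d and VPM b) to 0.35 (dLG e and MGv b). Such correlations cannot show whether libraries of different groups came from the same brains, so the pairing of the samples is not known.

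At this depth, *Slc32a1* had 0 to 3 counts in VPM libraries and *Gad2* had 1 to 11 there and 0 in MGv a, so the size of folds against these is poorly set.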
